A study of Mus musculus with 8 samples.

Results

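The genes described here encode the proteins that bring fatty acids into the heart muscle cell and burn them in its mitochondria. The set is a fixed list of 36 genes, matched by symbol in a table of 23100 genes, and all 36 were found and tested. It holds 5 genes of uptake and activation, 4 of the carnitine shuttle and 16 listed under the mitochondrial oxidation cycle and its auxiliary steps. The rest are 3 genes of electron transfer, 2 of peroxisomal oxidation, and 6 of regulators and lipid store proteins. RNA was sequenced from cardiac ventricles of 8 mice aged 4.5 months. The 4 Ctrl animals were Sox5fl/fl, Sox6fl/fl and negative for aMHC-Cre. The 4 DKO animals had the same floxed alleles and were positive for aMHC-Cre, a recombinase driven by a cardiomyocyte promoter, so that other ventricular cells keep both genes. Floxed alleles are shared by both groups, and no group carried Cre without them, so Cre and the deletion cannot be told apart. The series title speaks of pressure overload, but the labels name no operation on these mice.

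A working heart takes most of its energy from long-chain fatty acids. Lipoprotein lipase frees them from circulating triglyceride, CD36 and fatty acid transport proteins carry them across the membrane, and acyl-CoA synthetase activates them. The carnitine shuttle moves the acyl groups into the mitochondrial matrix, where each turn of beta-oxidation uses a dehydrogenase, a hydratase, a second dehydrogenase and a thiolase, and unsaturated chains need extra isomerases and a reductase. Electrons from the acyl-CoA dehydrogenases pass through the electron transfer flavoprotein, ETF, to the respiratory chain. Many of these genes are known targets of the nuclear receptor PPAR alpha and of estrogen-related receptors.

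Each level below is an FPKM value, read counts scaled by transcript length and library size, given once per genotype by the authors over the 4 animals. There is no value per animal, so neither a spread nor an overlap between animals can be given. A gene is called when Cuffdiff, in the authors' deposited table, gave it a q no greater than 0.05. In that table Sox6 was at 1.69 FPKM in DKO against 3.39 in Ctrl (q = 0.00158), and Sox5, at 0.497 and 0.369 FPKM, was not tested. Cardiomyocyte markers were high in both groups, with summed levels of 79203 FPKM in DKO and 89904 in Ctrl over 15 genes. The 9 adipocyte markers summed to 1081 FPKM in DKO and 1113 in Ctrl, nearly all of it from Fabp4 (1079 and 1111 FPKM), which capillary endothelium is also known to express. Adig was at 2.12 and 1.68 FPKM, and neither it nor Fabp4 was called. The other 7 were not tested, with Cfd the highest at 0.174 and 0.0316 FPKM and Ucp1 listed at 0 in both groups.

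A part of the oxidation machinery was modestly lower in DKO ventricles. Of the 36 genes, 13 were called lower and 2 higher, beside 3.06% of all 12133 tested genes called lower and 4.3% called higher. The 13 lower genes were between 1.22-fold and 1.37-fold lower, with a median of 1.25-fold. With a fold of at least 1.3 also required, Eci1, Hadh and Etfb remained among the lower genes, beside 1.71% of all tested genes, and both higher genes remained, beside 3.6%. At a q under 0.01 in the authors' deposited table, these 3 and Acsl1 were lower, beside 1.58%, and the same 2 genes higher, beside 2.74%. Of all 36, 32 had a log2 ratio of DKO over Ctrl below 0, and the median log2 ratio was -0.25, against -0.00 over all tested genes, of which 51.0% were below 0. The higher genes were Ucp2, a mitochondrial carrier of the uncoupling protein family, and Angptl4, a secreted inhibitor of lipoprotein lipase. Their ratios lay far outside the range of the other 34 genes, which ran from -0.46 to 0.18.

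Most of these genes are strongly expressed, and strongly expressed genes of this table tended to be lower in DKO. Among the 793 tested genes with a mean of at least 100 FPKM, 9.46% were called lower and 4.29% higher. Of the 793, 73.8% had a log2 ratio below 0, and the median log2 ratio was -0.10. At that level stood 25 of the 36 genes, all below 0, with a median log2 of -0.28. Of these 25, 11 were called lower and none higher. Beside this, the 15 cardiomyocyte markers had a median log2 of -0.19, a range of -0.31 to 0.06 and no called gene. Of the 15 markers, 14 were below 0. Relative to the markers' median the 36 genes had a median of -0.058. On that scale 11 genes without a call, among them Fabp3, Cpt1b, Acadl, Hadha and Hadhb, changed sign. The 13 lower genes could not do so, since even Eci2, with the ratio closest to 0 among them, had a log2 of -0.28. The calls were not remade on that scale. Of the 13, Eci2, Mlycd, Plin5 and Decr1 had log2 ratios within the range of the markers. In bulk ventricle, fewer cells of a type and less RNA per cell cannot be told apart. The part of cell composition in the lower values was not tested.

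**Figure D1:**
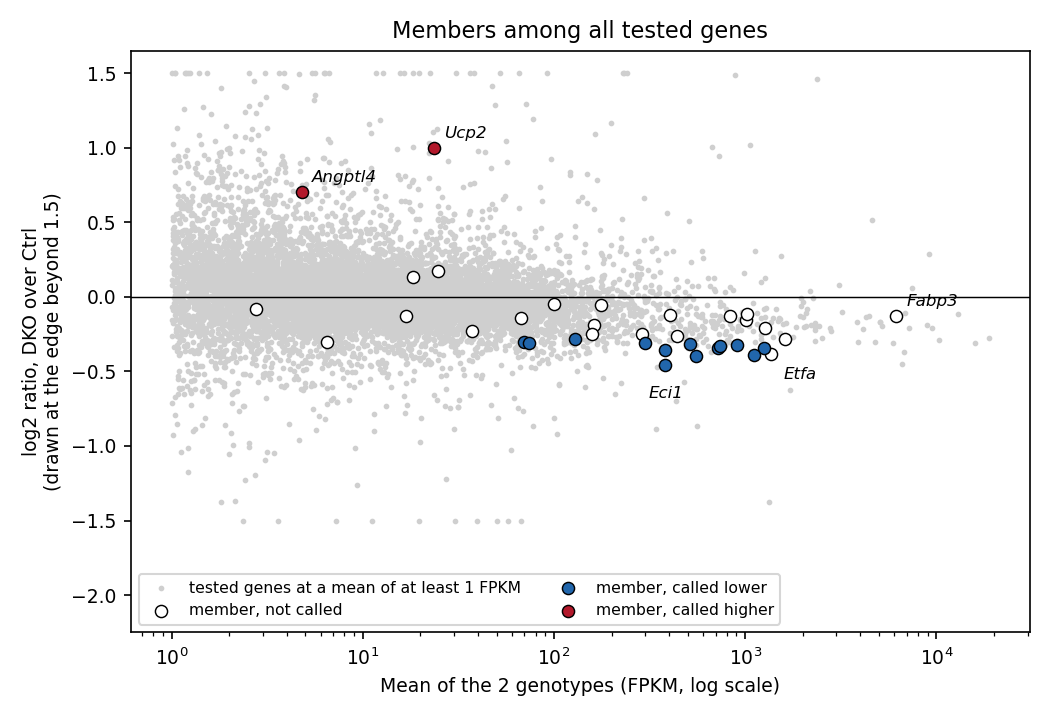
Log2 ratio of FPKM, DKO over Ctrl, against the mean level of the 2 genotypes (FPKM, log axis) for tested genes at a mean of at least 1 FPKM (gray; ratios beyond 1.5 are drawn at 1.5) and for the 36 genes (blue, called lower; red, called higher; white, not called). The 25 genes of the set at a mean of at least 100 FPKM all lie below 0, beside 73.8% of all tested genes at that level. Ucp2 and Angptl4 stand apart among the weaker genes.

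The summed level of the 36 genes was 20494 FPKM in DKO, 85.0% of the 24109 FPKM in Ctrl. FPKM is per length, so levels can be ordered between genes. Fabp3, the cytosolic fatty acid binding protein of heart, led with 6422 FPKM in Ctrl, which was 26.6% of the summed level and rank 14 among all tested genes. Lpl followed at 1782, Etfa at 1540, Ech1 at 1405 and Cd36 at 1358 FPKM. These are gene totals, and some rest largely on short transcripts, which leaves their order uncertain. The reference transcript of Fabp3 was listed at 0 in both genotypes, with its level in transcripts of 566 and 316 bases. In Ctrl a 299-base transcript held 53.9% of the Etfa level and a 584-base transcript 54.5% of the Hadhb level. At the lower end of Ctrl stood Ucp2 (15.7 FPKM), Ehhadh (7.16), Angptl4 (3.64) and Acad10 (2.84). Levels above 1000 FPKM were listed for 9 genes in Ctrl and 5 in DKO. As the plot of levels by role shows, levels in Ctrl spanned 2.84 to 6422 FPKM between genes, while no gene of the set differed by more than 2.00-fold between genotypes. The loci of 5 genes overlap those of other listed genes, namely Crat (Dolpp1), Acadvl (Mir324), Acad11 (Ccrl1), Hadha (Fam59b and 3110082J24Rik) and Hadhb (Mir1960). No label states that reads were counted by strand, and reads in an overlap leave these levels uncertain.

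**Figure D2:**
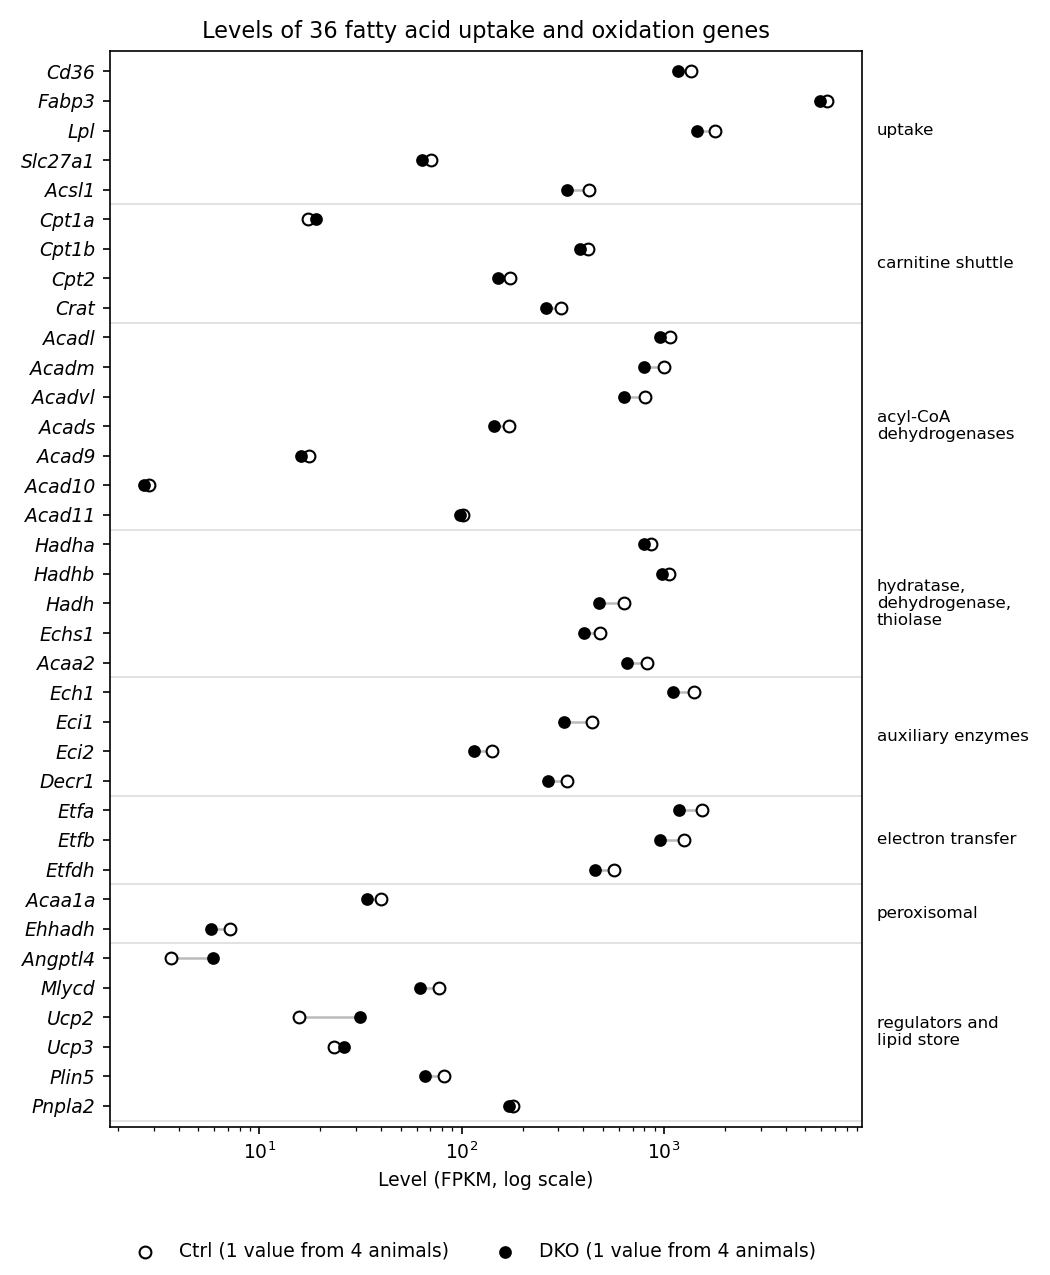
Level of each of the 36 genes on a log axis of FPKM, in Ctrl (open) and DKO (filled), 1 value per genotype from 4 animals with no error bar, grouped by role. DKO lies to the left of Ctrl for 32 genes and to the right for Cpt1a, Angptl4, Ucp2 and Ucp3.

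The roles hold 2 to 7 genes each, and their counts stand beside the shares already given, 3.06% of all tested genes called lower and 9.46% of those at a mean of at least 100 FPKM. No test sets 1 role against another. In uptake and activation, 1 of 5 genes was called lower, and 4 of the 5 are at a mean of at least 100 FPKM. Acsl1, the main long-chain acyl-CoA synthetase of heart (mm9 chromosome 8, 47556396 to 47621404), was at 333 FPKM in DKO against 426 in Ctrl, 1.28-fold lower (q = 0.00926 in the authors' deposited table). Lpl, the lipase itself, was at 1462 and 1782 FPKM, a log2 of -0.29 that was not called (q = 0.185 in the authors' deposited table). The scavenger receptor and fatty acid transporter gene Cd36 was at 1173 and 1358 FPKM, Fabp3 at 5875 and 6422 FPKM, and Slc27a1, a fatty acid transport protein, at 63.9 and 70.5 FPKM. None of these 3 was called, and their log2 ratios ran from -0.21 to -0.13. Lpl and Cd36 are also expressed by other cells of the ventricle. The 9 endothelial markers had a median log2 of -0.09, with 8 below 0 and no called gene. The part of such cells in the Lpl and Cd36 values was not tested.

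The carnitine shuttle held no called gene of 4. Cpt1b, the muscle form of the outer-membrane transferase that commits acyl groups to oxidation, was at 386 FPKM in DKO against 421 in Ctrl. Its row joins 3 genes, BC090627, Chkb and Cpt1b. The Cpt1b transcript alone was at 349 and 387 FPKM (q = 0.701 in the authors' deposited isoform table). Cpt1a, the form of liver and other tissues, was at 19.0 and 17.4 FPKM, a log2 of 0.13. Cpt1b therefore exceeded Cpt1a by a ratio of 20.3 in DKO and 24.3 in Ctrl, each for the whole Cpt1b row. Cpt2, the inner-membrane transferase, was at 152 and 173 FPKM, and Crat, which makes acetylcarnitine, at 262 and 311 FPKM. In the authors' deposited table these had p-values of 0.0345 and 0.0244 before adjustment and q-values of 0.240 and 0.192.

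Of the 7 genes listed as acyl-CoA dehydrogenases, 2 were called lower, beside 9.46% of all tested genes at a mean of at least 100 FPKM, a level that 5 of the 7 reach. The enzymes named below by chain length carry out the opening step of each cycle. Whether Acad9, Acad10 and Acad11 take part in it here was not tested. Acadvl, for very long chains (mm9 chromosome 11, 69823694 to 69828909), was at 634 FPKM in DKO against 804 in Ctrl, 1.27-fold lower (q = 0.0120 in the authors' deposited table). Acadm, for medium chains (mm9 chromosome 3, 153584789 to 153607422), was at 800 and 1002 FPKM, 1.25-fold lower (q = 0.0176 in the authors' deposited table). Acadl, for long chains, was the most abundant of the family at 960 and 1069 FPKM and was not called. The short-chain gene Acads was at 144 and 172 FPKM (q = 0.0623 in the authors' deposited table). Acad9, also known as an assembly factor of respiratory complex I, was at 16.1 and 17.6 FPKM, Acad10 at 2.69 and 2.84, and Acad11 at 98.6 and 102. The log2 ratios of those last 3 lay between -0.13 and -0.05, closest to 0 among the dehydrogenases.

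Of the 5 genes for the hydratase, second dehydrogenase and thiolase steps, Hadh and Acaa2 were called lower. Hadha and Hadhb encode the alpha and beta subunits of the mitochondrial trifunctional protein, which handles long chains. They were at 792 against 864 FPKM and at 978 against 1058 FPKM, with log2 ratios of -0.13 and -0.11 and no call. The ratio of the Hadha total to the Hadhb total was 0.810 in DKO and 0.817 in Ctrl. By reference transcript the order was the other way, Hadha at 296 and Hadhb at 195 FPKM in DKO, and 314 and 219 in Ctrl. Hadh, the matrix hydroxyacyl-CoA dehydrogenase for shorter chains (mm9 chromosome 3, 130936342 to 130974955), was at 479 and 632 FPKM, 1.32-fold lower (q = 0.00158 in the authors' deposited table). Acaa2, the matrix thiolase, was at 654 and 821 FPKM, 1.25-fold lower (q = 0.0120 in the authors' deposited table). Echs1, the matrix hydratase, was at 402 and 481 FPKM, and was not called (p = 0.0095 and q = 0.0995 in the authors' deposited table). The tables hold no test between genes, so a difference between the complex and the separate enzymes was not tested.

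Hadha and Hadhb lie head to head, with 123 bases between their listed loci on mm9 chromosome 5. Their RefSeq promoter windows, which run from 250 bases before to 50 bases after a start, overlap by 228 bases in the build GRCm38.p6. The Hadhb window, chr5:30155003-30155302 on the plus strand, is shown with the bases it shares with the Hadha window in capitals, to show how much of it the pair shares. No value here bears on whether the shared stretch acts on either gene.
Hadhb: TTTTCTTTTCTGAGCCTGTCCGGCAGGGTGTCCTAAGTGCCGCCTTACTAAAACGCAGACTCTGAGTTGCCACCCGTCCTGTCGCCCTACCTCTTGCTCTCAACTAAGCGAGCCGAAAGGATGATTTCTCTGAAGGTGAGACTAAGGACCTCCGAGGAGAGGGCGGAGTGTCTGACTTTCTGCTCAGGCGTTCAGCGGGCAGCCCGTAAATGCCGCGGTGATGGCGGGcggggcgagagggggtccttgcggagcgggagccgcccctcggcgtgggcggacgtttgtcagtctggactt

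Each of the 4 auxiliary enzymes, which prepare unsaturated chains for the cycle, was called lower. Eci1, an enoyl-CoA isomerase (mm9 chromosome 17, 24563628 to 24576261), had the lowest ratio of all 36 genes, at 320 FPKM in DKO against 439 in Ctrl, 1.37-fold lower (q = 0.00158 in the authors' deposited table). Ech1, a dienoyl-CoA isomerase (mm9 chromosome 7, 29610357 to 29617258), was the most abundant of them at 1106 and 1405 FPKM, 1.27-fold lower (q = 0.0128 in the authors' deposited table). Decr1, the dienoyl-CoA reductase (mm9 chromosome 4, 15844099 to 15872654), was at 267 and 331 FPKM, 1.24-fold lower (q = 0.0230 in the authors' deposited table). Eci2, an isomerase found in mitochondria and peroxisomes (mm9 chromosome 13, 35069617 to 35086013), was at 116 and 141 FPKM, 1.22-fold lower (q = 0.0367 in the authors' deposited table). Together these 4 genes summed to 78.1% of their Ctrl level, beside 77.2% for the 3 electron transfer genes. The sums of the other roles were 83.9% for the 7 acyl-CoA dehydrogenases, 85.7% for the 5 hydratase, dehydrogenase and thiolase genes, 88.6% for uptake, 88.8% for the carnitine shuttle, 84.6% for the peroxisomal genes and 95.7% for regulators and lipid store. Cardiomyocyte markers summed to 88.1%, and all tested genes at a mean of at least 100 FPKM to 91.1%. Strong genes weigh most in such sums, and Ech1 made up 60.7% of the auxiliary sum in Ctrl. A difference between roles was not tested.

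Of the 3 electron transfer genes, 2 were called lower. Etfb, the beta subunit of ETF (mm9 chromosome 7, 50699513 to 50718533), was at 958 FPKM in DKO against 1254 in Ctrl, 1.31-fold lower (q = 0.00290 in the authors' deposited table). Etfdh, the ETF dehydrogenase of the inner membrane (mm9 chromosome 3, 79407710 to 79432689), was at 455 and 568 FPKM, 1.25-fold lower (q = 0.0120 in the authors' deposited table). Etfa, the alpha subunit, was at 1181 and 1540 FPKM, a log2 of -0.38 beside -0.39 for Etfb, but it was not called (q = 0.220 in the authors' deposited table). Its total includes a 299-base transcript at 626 and 830 FPKM with a start site group of its own. The other start site group, which holds the longer transcripts, was at 555 and 710 FPKM and was called lower (q = 0.0175 in the authors' deposited table of start site groups). The ratio of Etfa to Etfb, over gene totals with the 299-base transcript included, was 1.23 in both genotypes. The group of longer Etfa transcripts alone was below the Etfb total in both genotypes.

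The peroxisomal genes were weak and not called. Acaa1a, the peroxisomal thiolase, was at 34.2 FPKM in DKO against 40.1 in Ctrl, and Ehhadh, the bifunctional enzyme of peroxisomes, at 5.79 and 7.16 FPKM. Their log2 ratios were -0.23 and -0.31, with p-values of 0.035 and 0.01305 before adjustment and q-values of 0.242 and 0.124 in the authors' deposited table. Acaa1a has a close paralog, Acaa1b, at 3.35 and 3.49 FPKM. The handling of reads shared by such copies, not given in the sources used here, leaves both values uncertain.

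Regulators and lipid store genes went both ways. Ucp2 (mm9 chromosome 7, 107641854 to 107650682) was at 31.4 FPKM in DKO against 15.7 in Ctrl, 2.00-fold higher (q = 0.00158 in the authors' deposited table). Ucp3, the muscle uncoupling protein gene, which ends 6912 bases before Ucp2 in the listed loci, was at 26.3 and 23.3 FPKM and was not called (q = 0.420 in the authors' deposited table). Ucp2 thus stood at 0.677 of the Ucp3 level in Ctrl and at 1.19 in DKO. Ucp2 is also known to be expressed by macrophages. The 10 macrophage markers, 8 of them called higher beside 4.3% of all tested genes, summed to 413 FPKM in DKO and 269 in Ctrl. Their log2 ratios ran from 0.39 to 0.82, and the part of macrophages in the Ucp2 value was not tested.

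Angptl4 (mm9 chromosome 17, 33911845 to 33918520) was at 5.93 and 3.64 FPKM, 1.63-fold higher (q = 0.00158 in the authors' deposited table). With Lpl at 1462 and 1782 FPKM, the level of the lipase over that of its inhibitor was 246 in DKO and 489 in Ctrl. The 10 fibroblast markers, 8 of them called higher beside 4.3% of all tested genes, summed to 823 FPKM in DKO and 632 in Ctrl. Their log2 ratios ran from 0.10 to 1.12. The part of fibroblasts or of any other cell type in the Angptl4 value was not tested. Mlycd, whose enzyme removes malonyl-CoA, the inhibitor of the outer-membrane carnitine transferase (mm9 chromosome 8, 121918792 to 121934988), was at 62.3 and 77.0 FPKM, 1.23-fold lower (q = 0.0190 in the authors' deposited table). Plin5, a lipid droplet protein of oxidative tissue (mm9 chromosome 17, 56251024 to 56256971), was at 66.1 and 81.9 FPKM, 1.24-fold lower (q = 0.0241 in the authors' deposited table). No single transcript, start site group or coding sequence of Plin5 was called. A minor transcript was at 1.10 FPKM in DKO against 8.35 in Ctrl, while the reference transcripts were 1.12-fold and 1.16-fold lower. The coding sequence was 1.13-fold lower (q = 0.554 in the authors' deposited table of coding sequences). The larger start site group was 1.27-fold lower (q = 0.177 in the authors' deposited table of start site groups). Plin4, 1798 bases from Plin5, was at 58.0 and 60.7 FPKM. Pnpla2, the triglyceride lipase of lipid droplets, was at 172 and 179 FPKM, a log2 of -0.06 with no call.

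**Figure D3:**
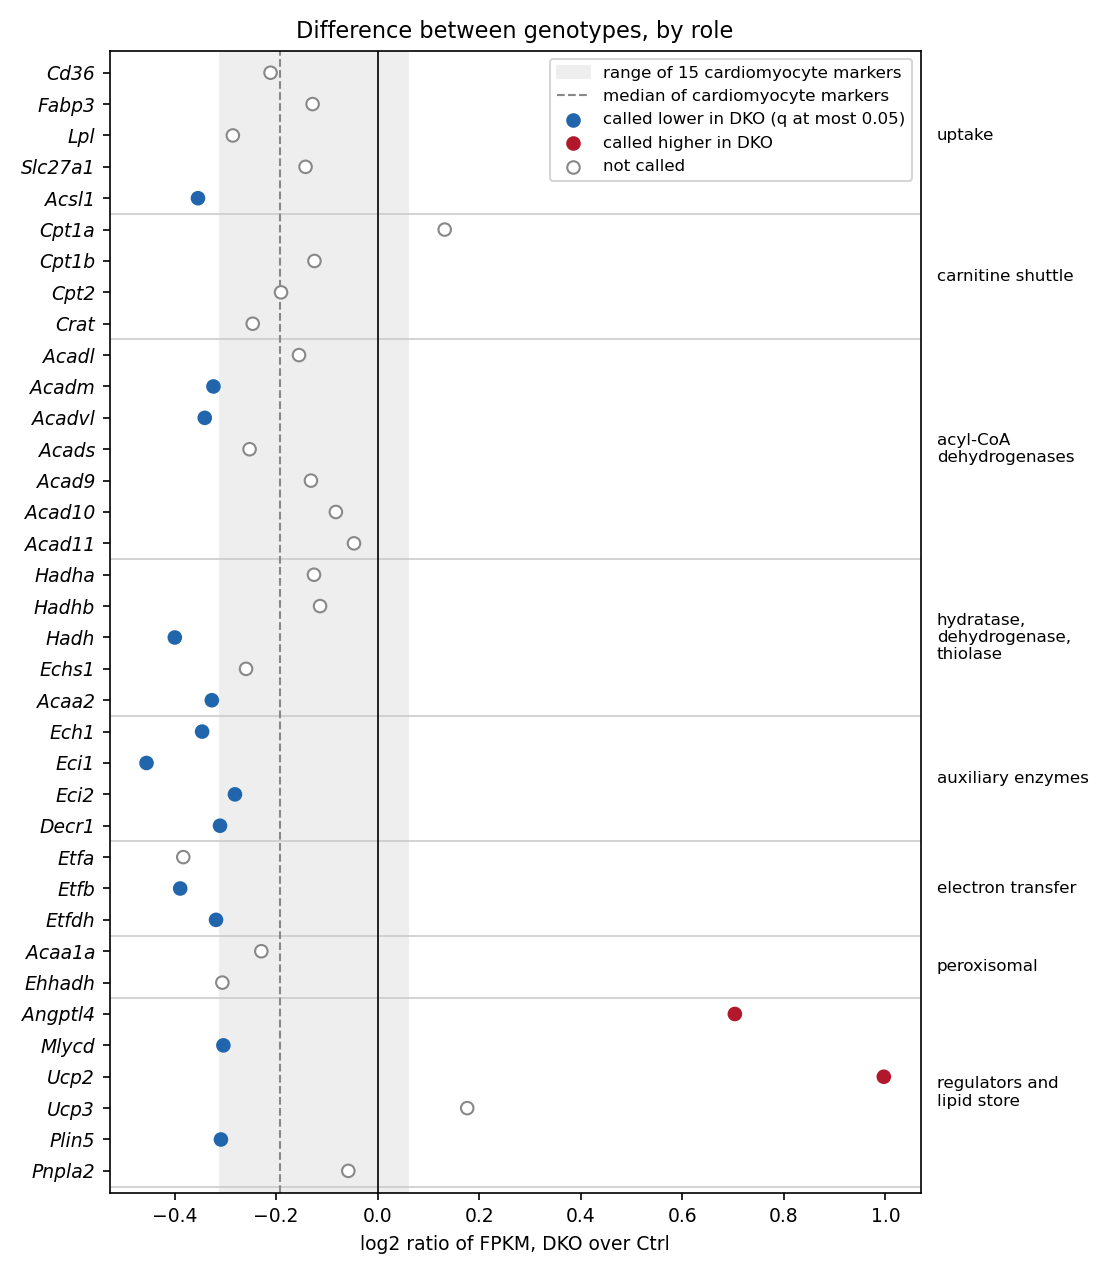
Log2 ratio of FPKM, DKO over Ctrl, for each of the 36 genes by role (blue, called lower; red, called higher; open, not called). The dashed line and gray band give the median (-0.19) and range (-0.31 to 0.06) of 15 cardiomyocyte markers; the 4 auxiliary enzymes are all blue, the carnitine shuttle has no filled point, and Ucp2 and Angptl4 lie far to the right.

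Of the 21 genes without a call, 8 had an unadjusted p of at most 0.05 with a ratio below 0, in the authors' deposited table. With the 13 called genes this made 21 of 36, beside 7.76% of all tested genes with such a p and a lower level in DKO. At a mean of at least 100 FPKM it was 17 of 25 genes of the set, beside 206 of all 793 tested genes at that level. On the higher side there were 2 of 36, beside 8.77% of all tested genes. These 8 were Lpl, Cpt2, Crat, Acads, Echs1, Etfa, Acaa1a and Ehhadh, with q-values from 0.0623 for Acads to 0.242 for Acaa1a in the authors' deposited table. A missed threshold does not show that a gene was equal in both genotypes.

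Fewer calls were made for single transcripts than for genes. The 36 genes had 89 listed isoforms, of which 84 were tested, 5 were called lower and 2 higher, beside 1.12% and 1.9% of all tested isoforms. All 7 belonged to called genes, 1 to each, and the other 8 called genes, among them Hadh, Etfb and Acsl1, had no called isoform. Of 52 start site groups, 12 were called lower and 2 higher, beside 1.99% and 2.95% of all tested groups. Of these 14 groups 13 belonged to called genes, and the other was that of Etfa. Of 38 coding sequences, 37 were tested, 7 were called lower and 2 higher, beside 1.66% and 2.98% of all tested coding sequences. Cuffdiff divides reads among overlapping transcripts by estimation, which leaves these values less certain than the total of a gene.

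In some genes the start site groups had unlike ratios. For Etfdh, the main group was at 354 FPKM in DKO against 473 in Ctrl (q = 0.00410 in the authors' deposited table of start site groups), while a smaller group was at 101 and 94.8 FPKM. For Eci1, the main group was at 272 and 386 FPKM (q = 0.00223 in the authors' deposited table of start site groups), beside 47.8 and 52.3 FPKM in the other. In Hadh they were at 380 against 514 FPKM (q = 0.0129 in the authors' deposited table of start site groups) and at 98.6 against 118 FPKM. Acsl1 had 4 groups, and the largest, at 222 and 299 FPKM, missed the threshold (q = 0.0597 in the authors' deposited table of start site groups). For Eci2, the coding sequence of 1 isoform was at 67.8 and 94.2 FPKM and the other at 42.8 and 40.6 FPKM, and neither was called. A difference between groups of the same gene was not tested. Crat had a group at 0.00902 FPKM in DKO against 14.5 in Ctrl that was not called either.

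**Figure D4:**
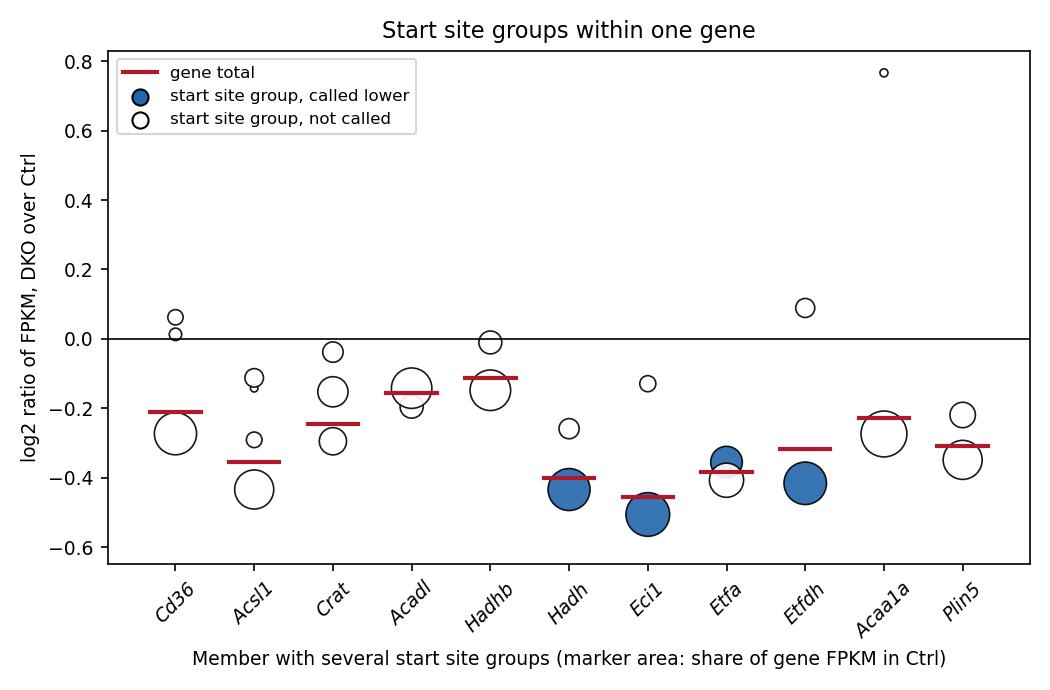
Log2 ratio of FPKM, DKO over Ctrl, of each start site group in the 11 genes with more than 1 group (marker area is the group's share of the gene's FPKM in Ctrl; blue, called lower) beside the gene total (red line). In Hadh, Eci1 and Etfdh the largest group lies below the gene total and the smaller group above it; the Crat group below 1 FPKM in DKO is not drawn.

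Promoter windows in the RefSeq table for GRCm38.p6 were matched by symbol for 29 of the 36 genes, with 33 windows of 300 bases. Their starts were not compared with the mm9 start sites of the tables. Windows were searched on both strands for the AGGTCA hexamer that nuclear receptors bind, for its direct repeat spaced by 1 base, AGGTCANAGGTCA, bound by PPAR with RXR, for TCAAGGTCA, bound by estrogen-related receptors, and for AACAAT, a Sox-type core. The longer motifs contain the hexamer. AGGTCA was in 8 of 33 windows (24.2%), in Acadm, Acadvl, Cd36, Cpt1a, Echs1, Plin5 and Ucp3, beside 16.3% of all 32851 windows in the table. By call, it was in 4 of 13 windows of lower genes and in 4 of 19 windows of genes without a call. The spaced repeat and TCAAGGTCA were in none of the 33, beside 0.0396% and 0.423% of all windows. AACAAT was in 2 of 33, in Acsl1 and Cd36, beside 10.7% of all windows. A match is a description of these letters and not a bound site. The windows of both called acyl-CoA dehydrogenases are shown because each holds the hexamer, in capitals here. The Acadm window is chr3:153944594-153944893 and the Acadvl window chr11:70015379-70015678, both read 5′ to 3′ on the minus strand, and in Acadm the match is on the opposite strand.
Acadm: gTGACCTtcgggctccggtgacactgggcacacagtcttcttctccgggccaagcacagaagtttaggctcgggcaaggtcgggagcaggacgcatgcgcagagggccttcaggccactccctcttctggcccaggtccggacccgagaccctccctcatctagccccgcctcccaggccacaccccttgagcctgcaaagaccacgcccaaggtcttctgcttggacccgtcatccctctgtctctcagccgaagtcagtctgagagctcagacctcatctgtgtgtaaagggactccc
Acadvl: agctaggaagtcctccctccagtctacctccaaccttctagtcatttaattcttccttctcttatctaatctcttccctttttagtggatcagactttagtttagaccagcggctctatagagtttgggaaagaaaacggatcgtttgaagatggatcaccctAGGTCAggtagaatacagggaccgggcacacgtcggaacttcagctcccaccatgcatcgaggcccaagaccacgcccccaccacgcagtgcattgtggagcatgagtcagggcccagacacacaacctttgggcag

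Beyond these 36, 88 other genes were listed around fatty acid metabolism, and 79 of them were tested. Some of the mitochondrial ones also or mainly serve amino acid breakdown. Of the 79, 12 were called lower and 1 higher, again beside 3.06% and 4.3% of all tested genes, and their median log2 was -0.14. At a mean of at least 100 FPKM, 3 of 21 were called lower and 1 higher, beside 9.46% and 4.29% of all tested genes at that level. Other mitochondrial oxidation genes had 5 of 15 called lower and none higher. Mut, the methylmalonyl-CoA mutase, was 1.34-fold lower (73.9 against 98.9 FPKM). Pccb and Pcca, the subunits of propionyl-CoA carboxylase in the same route, were 1.28-fold and 1.23-fold lower. Odd-chain fatty acids share that route with amino acid breakdown, so these calls are not particular to fatty acid oxidation. Nudt7, a hydrolase of coenzyme A compounds, was 1.22-fold lower. Its enzyme is peroxisomal, and with Nudt7 counted there the lists had 4 of 14 mitochondrial and 2 of 17 peroxisomal genes called lower. In uptake and activation, 2 of 14 were lower, the synthetase genes Acsl6 (5.81 against 7.85 FPKM) and Acss1 (132 against 171 FPKM).

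Lipid store and lipolysis genes had 3 of 16 called lower. This count and those of the lists below also stand beside 3.06% of all tested genes called lower and 4.3% called higher. Fitm1, a protein of lipid droplet formation in muscle, was at 126 FPKM in DKO against 175 in Ctrl, 1.39-fold lower. G0s2, an inhibitor of the lipase encoded by Pnpla2, was at 70.5 and 95.8 FPKM, and Lpin1, a phosphatidate phosphatase, at 36.8 and 45.3 FPKM. Of 16 other peroxisomal genes without Nudt7, 1 was lower, the transporter gene Abcd3, at 61.8 and 76.0 FPKM, and the list's median log2 was -0.06. None of 5 other carnitine genes was called, with the carnitine-acylcarnitine carrier gene Slc25a20 at 148 and 178 FPKM. Among 13 regulators, Ppara, the nuclear receptor gene, was lower at 20.1 and 25.6 FPKM, and Pdk4, a kinase that restrains glucose oxidation, was higher at 249 and 197 FPKM. The calls are those of the authors' deposited table.

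**Figure D5:**
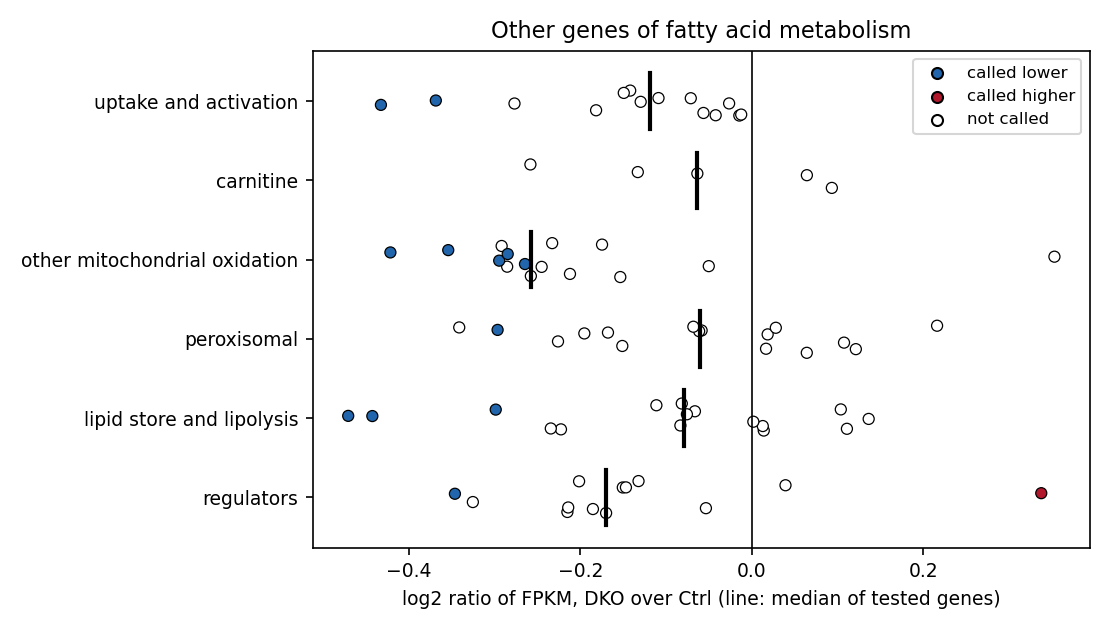
Log2 ratio of FPKM, DKO over Ctrl, of 79 tested genes in 6 further lists of fatty acid metabolism (blue, called lower; red, called higher; white, not called; black line, list median). The other mitochondrial oxidation genes, drawn with Nudt7 and with enzymes of amino acid breakdown among them, have the lowest median, -0.26. The called higher gene is Pdk4.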

How the data were processed

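Per the labels' protocols, each ventricle sample gave 2 µg of total RNA to a TruSeq library, which was read from a single end. The reads of the 4 Ctrl and 4 DKO libraries were processed by the authors with TopHat2 2.0.9, Cufflinks 2.1.1 and Cuffdiff 2.1.1 on mm9, per the submitters' processing notes. For these tools the annotation and settings were not given in the sources used here. In the deposited tables there is 1 FPKM value per genotype for genes, isoforms, start site groups and coding sequences, per the file headers. Depth is unknown here, so no interval or detection floor was computed. The p-values and q-values are those of the authors' Cuffdiff test, per the file headers. The q-values differed from Benjamini-Hochberg adjustment over the 12133 tested genes by at most 5.18e-07, and the smallest deposited p-value was 5e-05. The deposited log2 fold change sets Ctrl over DKO, per the file headers, so ratios were recomputed as DKO over Ctrl.

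Counts of calls, medians and promoter matches were computed with Python 3.11.15, pandas 2.3.3, numpy 2.4.6, statsmodels 0.14.6 and matplotlib 3.10.9. Counting was tested on simulated data. Locus starts were converted to count from 1. The labels name no batch. The members and lists were chosen with earlier results of these data known. All 36 members are named. Of each other pathway list, up to 4 called genes with the largest change, or the most abundant gene where none was called, are named. Genes of other lists named beside a member were chosen after their values were seen. The alternatives covered thresholds, filters, feature levels, scaling and a pseudocount.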

Additional observations from a re-analysis of the deposited data

How the results depend on the processing

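No paired analysis was possible because the tables hold 1 value per genotype and none per animal, and for the same reason no animal could be left out. Against 13 lower and 2 higher genes of the 36, a q under 0.01 left 4 lower and a fold of at least 1.3 left 3. The main isoform of each gene gave 5 lower and the main coding sequence 7, while an unadjusted p of at most 0.05 gave 21. Angptl4 leaves the set at a mean of at least 5 FPKM, which gave 1 higher gene, and at a mean of at least 100 FPKM, an alternative chosen after seeing the data, there were 0. The median log2 of the 36 became -0.058 with the cardiomyocyte markers' median set to 0, and the 79 other pathway genes then had 0.0495 in place of -0.14. Against their 12 lower and 1 higher of 79, there were 6 and 0 at a q under 0.01, and 4 and 0 with a fold of at least 1.3. The main isoform gave 5 and 0 of 78, the main start site group 7 and 1 of 78, and the main coding sequence 7 and 0 of 76. An unadjusted p of at most 0.05 gave 27 and 2 of 79, beside 7.76% and 8.77% of all tested genes. At a mean of at least 100 FPKM there were 3 and 1 of 21, beside 9.46% and 4.29% of all tested genes at that level. Counting Nudt7 as peroxisomal, an alternative chosen after seeing the data, moved the other peroxisomal genes called lower from 1 to 2. Stricter thresholds and filters keep a part of the calls by construction. For the other changes the cause was not tested. By its main feature at each level, no called gene of the 36 changed direction. Some smaller features of called genes had the other sign without a call, among them a start site group of Etfdh (101 FPKM in DKO, 94.8 in Ctrl) and a coding sequence of Eci2 (42.8 and 40.6 FPKM). By main isoform 8 called genes lost their call, by main coding sequence 6 and by main start site group 2. The scaling and the pseudocount could not reverse a called gene of the 36 by construction. Without a depth or a value per animal, no limit from either can be given.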
